A study of Homo sapiens with 12 samples.

Results

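The comparison described here sets OCI-AML2 cells that carried a guide against UTX and also received a DOT1L inhibitor against cells that had neither, and asks which changes of the 2 single perturbations cancel and which add up. Its members were chosen by the sample labels: the 4 libraries labelled sgUTX with SGC0946 (2 with the guide sgUTX_2 and 2 with sgUTX_4) and the 2 libraries labelled sgLuc with DMSO, 6 of the 12 libraries of the series. OCI-AML2 is an established human acute myeloid leukemia line with a rearranged KMT2A (MLL) gene. All 12 libraries came from cells infected with a lentivirus for a guide RNA and cultured with DMSO or 1 µM SGC0946 over 6 days. In the control group the guide was sgLuc, which is directed at luciferase, and the labels give its genotype as wild type and that of the sgUTX cells as UTX knockout. The other 6 libraries, 4 of sgUTX with DMSO and 2 of sgLuc with SGC0946, show each perturbation alone. The labels do not say whether the cells of a guide were a pool or a clone, nor whether the libraries of 1 group are separate cultures. The p-values therefore rest on the spread between libraries alone, and that spread may be technical.

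UTX, the product of KDM6A, removes methyl groups from lysine 27 of histone H3 and works with the KMT2C and KMT2D methyltransferases at enhancers. DOT1L methylates lysine 79 of histone H3 along transcribed genes, and MLL fusion proteins draw it to HOXA genes and MEIS1, which keep leukemia cells in an immature state. SGC0946 blocks the enzymatic site of DOT1L, and loss of DOT1L activity is known to let such cells take on features of monocytes and granulocytes.

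KDM6A itself (chrX:44873177-45112602 on the plus strand, GRCh38, GENCODE 29) was the first check of the labels. Levels are given throughout as CPM, read counts brought to a common library size with TMM factors, those of the sgUTX libraries in the order sgUTX_2, sgUTX_2, sgUTX_4, sgUTX_4. KDM6A stood at 32.05 and 27.9 CPM in the 2 sgLuc DMSO libraries and at 14.4, 15.9, 43.2 and 48.9 CPM in the 4 sgUTX SGC0946 libraries. The sgUTX_2 values lay below both control values and the sgUTX_4 values above both. Against sgLuc DMSO the log2 fold change was -0.99 with sgUTX_2 and 0.61 with sgUTX_4, and 0.01 (SE 0.70, edgeR adjusted p = 0.994) over both guides. An edit in the gene need not lower its transcript, so these levels do not show whether UTX protein was lost, and the groups are called by their guide.

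The sgUTX SGC0946 libraries held 16807292 to 23262141 counts and the sgLuc DMSO libraries 15480493 and 18120185. On principal components of log2 CPM over all 12 libraries, the sgLuc DMSO libraries stood apart on component 2 (23.1% of the variance), at 67.6 and 75.0, with the other 10 libraries at or below 9.004. Ribosomal protein genes took 17.7% and 18.9% of their counts against 10.98% to 12.1% in the sgUTX SGC0946 libraries. The guide effect alone, the inhibitor effect alone and the net change all use these 2 libraries as their control, so a departure there moves all 3 the same way and its part in any gene that moves alike in all 3 cannot be told apart. For that reason the 2 steps that do not use them are given as well: the inhibitor step within sgUTX cells (SGC0946 against DMSO) and the guide step under inhibitor (sgUTX against sgLuc, both with SGC0946). Of the leukemia cell markers, PTPRC, SPI1 and CEBPA were high in all 12 libraries. Summed marker levels over 12 of 12 genes were 1986 to 2098 CPM in sgLuc DMSO and 2156 to 2388 CPM in sgUTX SGC0946 libraries. The members did not move together: with both perturbations 5 were higher, MPO among them, and 6 lower, HOXA9 and MEIS1 among them. Of all genes tested, 29.8% were higher and 30.7% lower. Of 19 erythroid and megakaryocyte markers 10 had no count in any library, among them HBA1, HBB and PF4, and the list's summed level was 168 to 169 CPM in sgLuc DMSO and 317 to 617 CPM in sgUTX SGC0946 libraries, most of it the transferrin receptor TFRC. The 17 lymphoid markers summed to 212 to 220 and 92.7 to 95.4 CPM, most of it CD4, which monocytic cells also carry. The 12 adherent cell markers summed to 387 to 430 and 108 to 127 CPM, most of it VIM. Within that list COL3A1 was at 0 in both sgLuc DMSO libraries and at 0.0446, 3.82, 1.76 and 0.358 CPM in the sgUTX SGC0946 libraries. The part of these other-cell transcripts in any result below was not tested.

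Cells with both perturbations differed from untreated cells across much of the transcriptome. Of 15060 genes tested, 4482 were higher and 4618 lower in the sgUTX SGC0946 libraries (29.8% and 30.7% of genes, together 60.4%, by edgeR's quasi-likelihood test at an adjusted p under 0.05). A net change of 2-fold or more was called upward in 1259 and downward in 1516 genes (8.36% and 10.1%). The median log2 fold change of all genes was 0.02. With library size as the only scaling it was 0.30, the counts became 6899 and 2802, and 71.1% of the called genes were higher in place of 49.3%, so the split between higher and lower depends on the scaling. Of the 5960 genes not called, 3749 had a 95% interval of the net change inside 2-fold. With single guides 4330 genes were higher and 4491 lower for sgUTX_2, and 4402 and 4598 for sgUTX_4, and 7758 of the 9100 called genes were called the same way with each guide, which share the control libraries. The guides alone gave 4325 genes higher and 4863 lower in DMSO (28.7% and 32.3%, together 61%), and the inhibitor alone 3725 and 3641 in sgLuc cells (24.7% and 24.2%, together 48.9%).

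**Figure D1:**
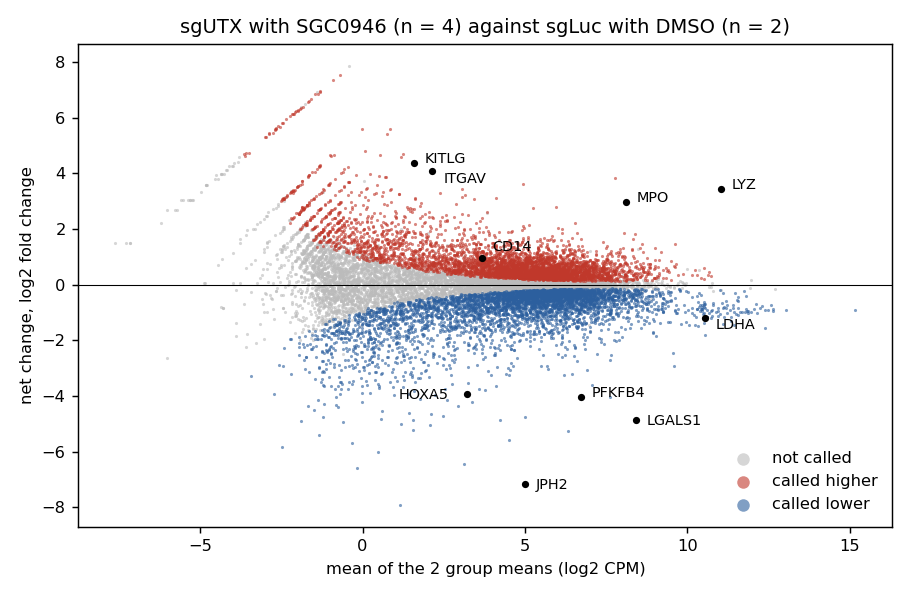
Net change of each gene, as log2 fold change of sgUTX SGC0946 (n = 4 libraries) against sgLuc DMSO (n = 2), against the mean of the 2 group means in log2 CPM. Red and blue points were called higher and lower at an adjusted p under 0.05, and the oblique lines at the left are genes of low count. JPH2 lies lowest of the named genes at -7.15, and LYZ combines a high level with a net change of 3.43.

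Among the largest net rises were a growth factor, an integrin and several genes of mature myeloid cells. KITLG, the ligand of the receptor KIT, stood at 0.373 and 0.151 CPM in sgLuc DMSO and 4.95, 5.09, 6.63 and 6.34 CPM in sgUTX SGC0946 libraries (log2 fold change 4.36, SE 0.37, adjusted p = 1.05e-09), below the 9.296 and 8.87 CPM with the inhibitor alone. ITGAV, an integrin subunit that binds extracellular matrix, went from 0.187 and 0.833 to 9.14, 7.19, 8.44 and 8.64 CPM (4.10). LYZ, the lysozyme of granules, went from 389.9 and 322 to 2889.7, 3259, 4699 and 4513 CPM (3.43), and the fatty acid receptor CD36 from 1.49 and 1.89 to 11.2, 14.4, 16.3 and 17.995 CPM (3.15). For these 4 genes the groups did not overlap, which adds little, as they were chosen for a large net rise called with each guide. LRRC4, a synaptic adhesion gene, had 3.20 with the guide alone, 3.39 with the inhibitor alone and 3.29 with both, so that its net change stood 3.30 below the sum (adjusted p = 0.000565). The protease inhibitors SLPI and SERPINB2 also rose, by 3.62 and 3.21 on the log2 scale. With both, SLPI was at 38.7, 47.9, 75.5 and 65.5 CPM and SERPINB2 at 9.81, 14.25, 19.9 and 21.01 CPM. The inhibitor alone gave higher levels: 371 and 352 CPM for SLPI and 96.4 and 97.8 CPM for SERPINB2. It also did for LYZ (9453 and 9246 CPM) and CD36 (76.7 and 75.5 CPM). ITGAV, in contrast, was at only 3.08 and 3.44 CPM with the inhibitor alone. SERPINB2 shares 19.9% of its exonic bases with SERPINB10, and LYZ 34.0% with a clone-named gene, whose reads cannot be told apart where counting did not use strand.

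Each of the genes with the largest net falls was already lower with the guide alone. JPH2, which joins the plasma membrane to the endoplasmic reticulum, stood at 65.7 and 61.2 CPM in sgLuc DMSO and at 0.802, 0.329, 0.397 and 0.204 CPM in sgUTX SGC0946 libraries (-7.15, SE 0.21, adjusted p = 2.29e-16). It was at 0.0982, 0.175, 0 and 0 CPM with the guides alone, so the inhibitor step within sgUTX cells raised it by 2.45, though its level stayed under 1 CPM. LGALS1, a galectin that binds cell surface sugars, went from 627 and 687 to 22.02, 27.4, 21.9 and 19.7 CPM (-4.85). The inhibitor alone left LGALS1 at 662 and 672 CPM (0.02, adjusted p = 0.886), while in sgUTX cells it dropped by a further 1.13 on the log2 scale. The creatine transporter SLC6A8 (-5.25), the Rab regulator TBC1D30 (-5.58), the vasodilator peptide gene ADM (-4.85), the amino acid oxidase IL4I1 (-4.65) and the WNT signalling regulator DACT3 (-4.75) fell too. Levels in bulk libraries do not tell fewer cells of a kind from less RNA per cell.

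To see how the single effects stand to the net change, genes were classed by the effect of each perturbation alone, called and at least 2-fold. At that fold the guides alone raised 1033 and lowered 2034 genes (6.86% and 13.5%), and the inhibitor alone raised 1487 and lowered 719 (9.87% and 4.77%). Opposite single effects were found in 392 genes, of which 366 were lower with the guide and higher with the inhibitor. Of these 392, 145 had a net change within 1.5-fold of the untreated level and are called cancelled here (0.963% of genes tested), 145 kept the direction of the guide, 39 that of the inhibitor, and 63 lay beyond 1.5-fold without being called. Like single effects were found in 511 genes. The net change went beyond both single effects by test in 41 of them, called added here (0.272%), while in 444 it was called in the shared direction without passing beyond both. Of 1423 genes called by the guide alone, 863 kept a net change of at least 2-fold in the same direction, and of 887 called by the inhibitor alone 289 did. A last group of 193 genes (1.28%), 139 higher and 54 lower, reached a net change of 2-fold with neither effect called. The departure of the net change from the sum of the single effects, all on the log2 scale, was called in 2756 genes upward and 2484 downward (18.3% and 16.5%).

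**Figure D2:**
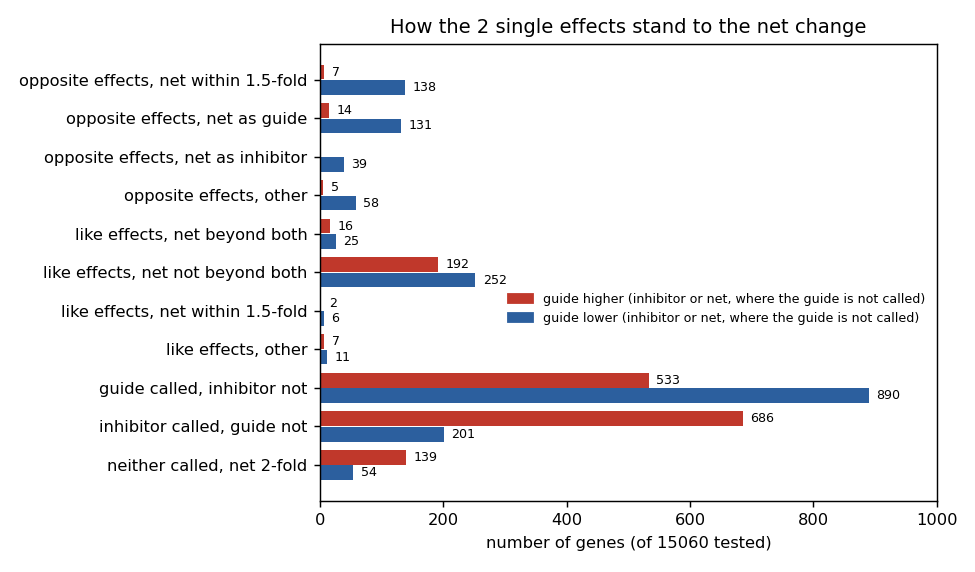
Number of genes by how the 2 single effects stand to the net change, of 15060 tested. Red bars are genes higher with the guide (or, where the guide was not called, higher with the inhibitor or net), blue bars genes lower. Opposite effects are mostly blue, with 138 cancelled genes that were lower with the guide and 7 that were higher.

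Cancellation ran mostly one way, as did all opposite single effects of at least 2-fold. Lower with the guide and higher with the inhibitor were 138 of the 145 cancelled genes, with medians of -1.79 and 1.98 and a net median of -0.11. At any fold, 1051 of the 1700 genes with opposite calls were lower with the guide and 649 higher. The 95% interval of the net change lay inside 2-fold in 100 of the 138, and 14 were called higher and 20 lower. The departure from the sum was called downward in 30 of the 138 and upward in 11 (16.5% and 18.3% of all genes). Cancelled thus describes the net level and does not mean single effects of equal size. CSF1R, the receptor of macrophage colony-stimulating factor, is an example. It stood at 68.9 and 59.7 CPM in sgLuc DMSO, at 9.87, 11.7, 18.6 and 12.2 CPM with the guides alone, at 159 and 169 CPM with the inhibitor alone and at 73.5, 66.1, 52.1 and 56.7 CPM with both. The untreated and combined values overlapped, and the net change was -0.05 (95% interval -0.52 to 0.42, adjusted p = 0.852). VNN1, a pantetheinase of myeloid cells, was at 1.12 and 1.29 CPM untreated and 0.0982, 0.219, 0.11 and 0.162 CPM with the guides alone. It was at 66.4 and 72.4 CPM with the inhibitor alone and 0.847, 1.27, 0.963 and 1.69 CPM with both (net -0.01, 95% interval -0.61 to 0.60). Its rise with the inhibitor alone was larger than its fall with the guides alone. CDA, which inactivates cytidine analogues, was at 101 and 102 CPM untreated and 73.5, 85.3, 98.4 and 95.3 CPM with both (net -0.21, adjusted p = 0.379; -1.45 and 1.06 alone). MMP9, a secreted protease, had single effects of -3.48 and 4.93 and went from 14.997 and 13.1 to 17.9, 16.4, 27.7 and 20.9 CPM (net 0.54, adjusted p = 0.0305). That call was lost without the first or the second sgLuc DMSO library (adjusted p = 0.077 and 0.176), without the second sgUTX_2 DMSO library (0.0502) and without the second sgUTX_4 SGC0946 library (0.0548). MMP9 shares 18.4% of its exonic bases with SLC12A5-AS1. Just inside the limit of 1.5-fold (0.58 on the log2 scale) lay FCGR3A, the low-affinity Fc receptor, at 0.58, and just outside it HMGCS1, a sterol enzyme, at -0.65.

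The 7 cancelled genes of the other direction, higher with the guide and lower with the inhibitor, had a net median of 0.42. TUBE1, a tubulin of the centriole, stood at 32.3 and 28.8 CPM untreated, 76.3 CPM with the guides alone, 10.6 and 12.1 CPM with the inhibitor alone and 42.2, 46.9, 30.1 and 42.4 CPM with both (net 0.40, adjusted p = 0.0163, and 0.145 without the second sgLuc DMSO library). DDN, a cytoskeletal protein gene, had 1.15 with the guide alone, -1.53 with the inhibitor alone and 0.46 with both, its combined values of 25.9, 23.2, 22.8 and 19.7 CPM all above the 17.5 and 15.7 CPM of untreated cells.

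Genes of monocytes and macrophages met opposite effects in 14 members, each lower with the guide and higher with the inhibitor at any fold; with both, 7 of these were lower, 3 higher and 4 not called. Over all 15060 genes tested, 1051 were lower with the guide and higher with the inhibitor in this way, and 649 were the reverse. Of 28 tested members, 18 were lower and 1 higher with the guide alone (median -1.11), and 24 were higher and 3 lower with the inhibitor alone (median 2.68). With both, 8 were higher and 11 lower and the median was 0.04, beside 0.02 over all genes tested; with library size only 10 were higher and 10 lower. All 28 were lower in sgUTX SGC0946 than in sgLuc SGC0946 libraries (29.3% of all genes were), and 19 were higher and 1 lower in the inhibitor step within sgUTX cells (17.4% and 16.4%). CD14, the monocyte receptor for lipopolysaccharide, went from 8.65 and 8.55 CPM untreated to 546 and 566 CPM with the inhibitor alone, but stood at 14.1, 13.1, 19.5 and 20.3 CPM with both. Its net change was 0.95 (SE 0.19, adjusted p = 0.000774) with no overlap of the groups, and the net change was 3.11 lower on the log2 scale than the sum of the single effects (adjusted p = 5.10e-06). ITGAM, the integrin chain CD11b, had -1.62 with the guide alone, 5.05 with the inhibitor alone and 1.27 with both. ITGB2, the shared chain of the leukocyte integrins, was at 655 and 641 CPM untreated and 521, 503, 476 and 485 CPM with both (net -0.38, adjusted p = 0.02502). ITGB2 lost its call without the first sgUTX_4 SGC0946 library (adjusted p = 0.0593) and without the first or second sgLuc DMSO library (0.121 and 0.0926).

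Members of that list ended on either side of the untreated level. The Fc receptor FCGR2A fell from 135 and 129.6 to 34.4, 30.8, 32.4 and 32.5 CPM (-2.03), and its net change stood 0.07 from the sum of -2.88 and 0.78 (adjusted p = 0.666). CD86, a costimulatory ligand, had -3.50 with the guide alone, 3.73 with the inhibitor alone and -0.93 with both, and the lectin LGALS3 -2.43 with the guide alone, 0.69 with the inhibitor alone and -1.46 with both. CYBB, which makes superoxide in phagocytes, was higher under each perturbation and stood at 156 and 145 CPM untreated, 355 CPM with the guides, 1019.7 and 974 CPM with the inhibitor and 493, 489, 544 and 576 CPM with both. Its combined level (1.80 against untreated) was thus below that of the inhibitor alone (-0.92, adjusted p = 8.96e-11).

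**Figure D3:**
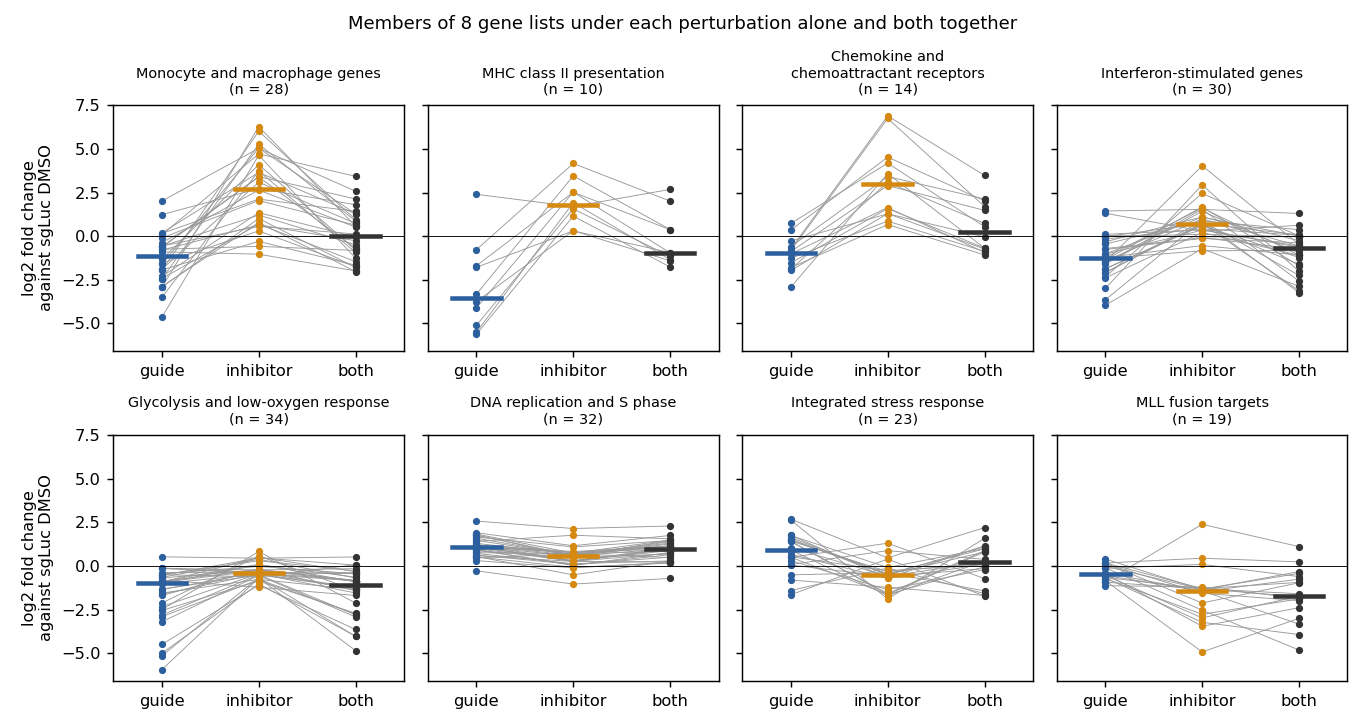
Log2 fold change against sgLuc DMSO of the tested members of 8 gene lists with the guides alone, with the inhibitor alone and with both. Each point is a gene, thin lines join its 3 values and thick bars are medians. Monocyte genes have medians of -1.11, 2.68 and 0.04, and replication genes 1.10, 0.56 and 0.997.

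MHC class II genes, which present peptides to helper T cells, were low with the guide, high with the inhibitor and in part below the untreated level with both. Of 10 tested members, 8 were lower and 1 higher with the guide alone (median -3.54), 8 were higher and none lower with the inhibitor alone (median 1.81), and with both 1 was higher and 5 lower (median -0.95; 3 and 5 with library size only). In the inhibitor step within sgUTX cells, which uses no sgLuc library, 9 of the 10 were higher and none lower (median 2.97; 17.4% of all genes were higher). HLA-DRA was at 57.7 and 61.9 CPM untreated, 0.835, 1.36, 1.65 and 0.972 CPM with the guides alone, 124 and 141 CPM with the inhibitor alone and 23.4, 19.5, 15.2 and 11.7 CPM with both. Its net change of -1.77 (SE 0.21, adjusted p = 5.81e-05) was 2.71 above the sum of the single effects (adjusted p = 0.000636). CIITA, the transactivator of these genes, was not called with the inhibitor alone (0.31, adjusted p = 0.232) but rose by 2.34 in the inhibitor step within sgUTX cells, from 0.639, 1.27, 1.05 and 0.8103 to 6.02, 5.54, 4.02 and 3.58 CPM, and ended -1.41 against untreated cells. The peptide exchange chains HLA-DMA and HLA-DMB were cancelled, with net changes of 0.38 and 0.38. HLA-DMB reached 0.66 with library size only (adjusted p = 0.0337). CD74, the invariant chain, went from 774 and 817 to 459, 438, 376 and 386 CPM (-0.94). HLA genes are close copies whose reads can be split, and CIITA shares 11.6% of its exonic bases with DEXI. Of 12 MHC class I presentation genes, 10 were lower and 2 higher with both (median -0.35), and 5 and 2 with library size only, with HLA-E at -1.43. Of all genes, 30.7% were lower and 29.8% higher with both. With the guide alone 32.3% of all genes were lower, and with the inhibitor alone 24.7% were higher.

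All 14 tested receptors for chemokines and other chemoattractants were higher with the inhibitor alone (median 2.99), while 8 were lower and 1 higher with the guide alone. Of all genes, 24.7% were higher with the inhibitor alone, and 32.3% were lower and 28.7% higher with the guide alone. With both, 7 receptors were higher and 4 lower (median 0.25), beside 29.8% and 30.7% of all genes. All 14 were lower than with the inhibitor alone in the guide step under SGC0946 (29.3% of all genes were). FPR1, a receptor for bacterial formyl peptides, was at 0.933 and 1.82 CPM untreated, 142 and 146 CPM with the inhibitor alone and 3.74, 3.203, 5.38 and 5.37 CPM with both (net 1.70; departure from the sum -4.23, adjusted p = 7.29e-06). CXCR2, a receptor for neutrophil-attracting chemokines, kept more of its rise, from 14.7 and 14.3 to 37.7, 38.1, 42.95 and 43.5 CPM (1.48). CXCR4, the receptor that holds cells in marrow, ended below its untreated level (-1.80 with the guide alone, 0.66 with the inhibitor alone and -1.08 with both).

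Interferon-stimulated genes mostly kept the direction of the guide. Of 30 tested, 20 were lower and 1 higher with the guide alone, 16 higher and 2 lower with the inhibitor alone, and with both 16 were lower and 1 higher (median -0.69). With library size only 14 were lower and 5 higher. Of all genes, 32.3% were lower with the guide alone, 24.7% higher with the inhibitor alone and 30.7% lower with both. In 13 members the single effects were opposite and called; with both, 9 of these were lower and the other 4 were not called. Of the 1700 genes tested that had opposite calls, 888 kept the direction of the guide and 644 were not called with both. OAS2, a sensor enzyme for double-stranded RNA, was at 11.9 and 11.96 CPM untreated, 20.9 and 23.5 CPM with the inhibitor alone and 1.52, 1.19, 1.08 and 1.23 CPM with both (net -3.24, SE 0.21, adjusted p = 9.23e-12). IFIT2, which binds foreign RNA, ended lower with both (-3.12) than with the guides alone (-2.08; inhibitor step -1.05, adjusted p = 0.0197), whereas IFITM1, a membrane restriction factor that shares 32.5% of its exonic bases with IFITM2, was cancelled (-2.33 with the guide alone, 2.45 with the inhibitor alone and 0.02 with both). IFI6, a mitochondrial member of the group, went from 86.1 and 74.8 to 36.99, 35.3, 35.1 and 30.7 CPM (-1.22). The letters of the interferon response element, GAAA followed after any 2 bases by GAAA, on either strand, stood in the 250 bases before the start of 14 of the 22 members with a promoter in the RefSeq table (GRCh38.p14), 63.6% against 2.60% of the promoters of tested genes and 3.07% of all 27305 in the table. The IFI6 promoter (chr1:27672193-27672442, minus strand) is shown because it holds 3 such matches, in capitals, in a gene that moved with its list.

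IFI6: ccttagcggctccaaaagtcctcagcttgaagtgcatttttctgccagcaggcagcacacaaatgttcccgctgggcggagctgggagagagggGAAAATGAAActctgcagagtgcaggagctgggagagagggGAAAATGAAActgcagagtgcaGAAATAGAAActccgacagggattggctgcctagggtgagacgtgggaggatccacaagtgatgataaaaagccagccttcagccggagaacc

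Cholesterol synthesis genes fell less far with both than with the guide alone. Of 23 tested, 20 were lower and 1 higher with the guide alone (median -1.01), 10 higher and 1 lower with the inhibitor alone (median 0.38), and 15 lower and 2 higher with both (median -0.41; 7 and 2 with library size only). Over all genes, 32.3% were lower with the guide alone, 24.7% higher with the inhibitor alone and 30.7% lower with both. The inhibitor step within sgUTX cells was upward in 18 of the 23 and downward in none (17.4% of all genes were higher). No departure from the sum was called in 21 of the 23, nor in 9820 of all 15060 genes tested. The letters of the sterol regulatory element, searched on both strands, stood in 1 of 18 promoters of the list (5.56%), that of SREBF2, and in 0.049% of the promoters of tested genes. MSMO1, which removes methyl groups from the sterol ring, was at 144 and 148 CPM untreated, 20.2, 19.5, 34.8 and 18.9 CPM with the guides and 43.9, 43.9, 65.05 and 49.5 CPM with both (net -1.54, adjusted p = 0.000481). IDI1, an isomerase of the isoprenoid branch, had -1.30 with the guide alone, 0.64 with the inhibitor alone and -0.62 with both, and HMGCS1 a net change of -0.65 (adjusted p = 0.0464) that lost its call without either sgLuc DMSO library (adjusted p = 0.176 and 0.126) and without single sgUTX or sgLuc SGC0946 libraries (0.0616 to 0.088).

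Genes of the integrated stress response, which cells switch on when amino acids run short, showed the reverse: higher with the guide and lower with the inhibitor. Of 23 tested, 15 were higher and 4 lower with the guide alone (median 0.92), 2 higher and 15 lower with the inhibitor alone (median -0.50), and 11 higher and 5 lower with both (median 0.23). In the guide step under inhibitor 17 were higher and 6 lower (27.7% and 29.3% of all genes). Over all genes, 28.7% were higher with the guide alone, 24.2% lower with the inhibitor alone and 29.8% higher with both. CHAC1, which degrades glutathione, stood at 9.58 and 8.86 CPM untreated, 2.47 and 2.495 CPM with the inhibitor alone, 56.4, 50.5, 63.4 and 59.6 CPM with the guides alone and 23.8, 29.7, 26.2 and 31.7 CPM with both (net 1.59, SE 0.13, adjusted p = 5.24e-10). The 4 combined values lay above untreated and below the guides alone. The cystine transporter SLC7A11 (2.20), the neutral amino acid transporter SLC7A5 (1.16), the serine synthesis enzyme PSAT1 (0.81) and asparagine synthetase ASNS (0.87) also stayed above untreated cells. ASNS shares 44.6% of its exonic bases with a clone-named gene. The transcription factors of stress and death moved otherwise: DDIT3 (CHOP) was at 16.9 and 20.7 CPM untreated and 6.86, 8.34, 7.14 and 5.37 CPM with both (-1.43, adjusted p = 1.24e-06), and ATF3 had 0.50 with the guide alone, 1.31 with the inhibitor alone and -0.72 with both. DDIT3 shares 27.2% of its exonic bases with MARS. The letters TGATGNAA of the amino acid response element, on either strand, stood in 3 of 19 promoters of the list (15.8%, against 1.51% of promoters of tested genes and 3.19% of all). The CHAC1 promoter (chr15:40953221-40953470, plus strand) is shown, its match in capitals, as that of the member with the largest opposite effects in the list.

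CHAC1: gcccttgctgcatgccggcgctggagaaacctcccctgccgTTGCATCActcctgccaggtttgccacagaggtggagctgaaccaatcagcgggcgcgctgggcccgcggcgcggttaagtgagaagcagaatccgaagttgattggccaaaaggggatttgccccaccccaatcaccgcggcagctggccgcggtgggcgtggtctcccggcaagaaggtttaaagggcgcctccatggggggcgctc

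Few genes added up. The 41 added genes, 25 lower and 16 higher, had net medians of -1.97 and 1.996, and the net change was smaller than the sum of the single effects by test in 18 and 8 of them. CLEC2B, a lectin that activates natural killer cells, came close to a plain sum. It stood at 83.3 and 103 CPM untreated, 32.6, 25.9, 37.8 and 31.3 CPM with the guides alone, 31.1 and 35.2 CPM with the inhibitor alone and 11.4, 10.9, 10.48 and 12.5 CPM with both. Each group with 1 perturbation lay below untreated and above the combined group, and the net change of -3.03 (SE 0.12, adjusted p = 2.74e-13) departed from the sum of -1.55 and -1.49 by less than 0.01 (95% interval of the departure -0.33 to 0.32). RXFP1, the relaxin receptor, likewise went from 128 and 116 to 21.4, 24.3, 16.04 and 17.9 CPM (-1.36 with the guide alone, -1.39 with the inhibitor alone and -2.61 with both; departure 0.15, adjusted p = 0.559). TNXB, a matrix glycoprotein, fell by 3.33, the transcription factor SALL2 by 2.27, the chemokine CCL5 by 2.52 and the toll-like receptor homologue CD180 by 2.18 on the log2 scale. CCL5 stood at 320.1 and 357 CPM untreated and 61.1, 56.9, 60.01 and 57.6 CPM with both, and its net change was 0.78 above the sum (adjusted p = 6.94e-05). HOXA11, the only MLL fusion target in this class, went from 20.5 and 21.7 to 4.77, 5.34, 7.54 and 5.88 CPM (-1.85), and 31.1% of its exonic bases are shared with HOXA11-AS on the other strand.

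Among genes that added up upward, FARP1 stood at 1.24 and 1.06 CPM untreated and 7.76, 7.31, 6.46 and 7.05 CPM with both (1.63 with the guide alone and 2.62 with both; departure -0.26, adjusted p = 0.619). The endolysosomal nucleotidase ENTPD7 went from 4.36 and 6.51 to 16.8, 17.9, 30.3 and 24.9 CPM, DYNC2H1, a motor of cilia, had 1.26 with the guide alone, 1.21 with the inhibitor alone and 1.89 with both, and the glycosyltransferase MGAT4A 1.20 with the guide alone, 1.60 with the inhibitor alone and 1.87 with both. IKBKE, a kinase upstream of interferon factors, stood at 39.95 and 38.1 CPM untreated and 103, 102, 111 and 107 CPM with both (1.44). FARP1 shares 21.1% of its exonic bases with STK24, and CLEC2B 18.2% with a clone-named gene.

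In 444 of the 511 genes with like effects the net change was called that way but not shown to pass beyond both single effects, and all these effects rest on the sgLuc DMSO libraries. Of the 192 genes that were higher under each perturbation without passing beyond both, 149 ended below the sum of the effects, and of the 252 lower ones 193 ended above it. The class leaves out genes that passed beyond both, so such departures are largely given in advance and describe the class only. The departure also uses the sgLuc DMSO libraries, whose part in it cannot be told apart. DNA replication genes were mostly higher under each perturbation and with both. Of 32 tested, 31 were higher and none lower with the guide alone (median 1.10), 24 higher and 2 lower with the inhibitor alone (median 0.56), and 31 higher and 1 lower with both (median 0.997). Over all genes, 28.7% were higher with the guide alone, 24.7% with the inhibitor alone and 29.8% with both. For the 32 the departure from the sum was downward in 27 and upward in none (16.5% of all genes were downward). 2 steps do not use the sgLuc DMSO libraries. In the inhibitor step within sgUTX cells none of the 32 was higher and 17 were lower (17.4% and 16.4% of all genes). In the guide step under inhibitor 25 were higher and 2 lower (27.7% and 29.3% of all genes). CCNE2, the cyclin of S phase entry, stood at 4.48 and 3.79 CPM untreated, 27.5, 28.6, 21.3 and 21.5 CPM with the guides, 19.4 and 17.5 CPM with the inhibitor and 22.5, 20.4, 19.3 and 19.1 CPM with both (net 2.29, SE 0.16, adjusted p = 5.82e-11). The combined group overlapped each group with 1 perturbation, and all 10 perturbed libraries lay above the untreated ones. CCNE2 shares 37.05% of its exonic bases with INTS8. The helicase subunits MCM3 and MCM6 rose by 1.31 and 1.04, the sliding clamp PCNA by 1.15, the ribonucleotide reductase subunit RRM2 by 1.56 and the transcription factor E2F1 by 1.46. E2F1 stood at 17.8 and 16.3 CPM untreated and 43.8, 43.6, 49.98 and 50.9 CPM with both. Genes of mitosis did not share this: 7 of 28 were higher and 7 lower with both (18 and 4 with library size only), although MKI67, a proliferation marker in that list, went from 161 and 139 to 335, 324, 337 and 353 CPM (1.17).

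The letters TTTCCCGC or TTTGGCGC, bound by E2F factors, on either strand stood in 12 of 27 promoters of replication genes (44.4%), against 3.12% of the promoters of tested genes and 1.96% of all in the table. The MCM6 promoter (chr2:135876444-135876693, minus strand) is shown as one with 2 matches, in capitals, in a gene of this list.

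MCM6: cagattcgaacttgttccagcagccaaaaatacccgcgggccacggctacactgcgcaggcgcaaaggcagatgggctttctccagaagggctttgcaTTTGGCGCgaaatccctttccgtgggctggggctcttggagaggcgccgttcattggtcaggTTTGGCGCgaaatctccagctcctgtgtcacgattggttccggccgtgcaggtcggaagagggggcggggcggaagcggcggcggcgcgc

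Glycolysis and low-oxygen response genes were mostly lower with the guide alone and with both. Of 34 tested, 30 were lower and 1 higher with the guide alone (median -0.997), 20 lower and 7 higher with the inhibitor alone (median -0.38), and 30 lower and 1 higher with both (median -1.06; 26 and 2 with library size only). Over all genes, 32.3% were lower with the guide alone, 24.2% with the inhibitor alone and 30.7% with both. For the list the net change lay above the sum in 18 and below it in 3 (18.3% and 16.5% of all genes). In the guide step under inhibitor, which uses no sgLuc DMSO library, 28 were lower and 1 higher (29.3% and 27.7% of all genes). In the inhibitor step within sgUTX cells 16 were higher and 5 lower (17.4% and 16.4% of all genes). PFKFB4, which makes an activator of phosphofructokinase, was at 194 and 202 CPM untreated, 111 and 139 CPM with the inhibitor alone, 4.96, 5.698, 5.95 and 5.78 CPM with the guides alone and 13.996, 11.499, 12.6 and 10.2 CPM with both (net -4.03, SE 0.10, adjusted p = 1.59e-17). All 4 combined values lay below untreated cells and above the guides alone. The stress gene NDRG1 went from 1278 and 1459 to 195, 184, 172 and 171 CPM (-2.92) and BNIP3, a mitophagy receptor, from 169 and 167 to 24.6, 24.3, 25.8 and 25.2 CPM (-2.75). The aldolase ALDOC (-4.02), the neuronal enolase ENO2 (-3.64) and the isomerase GPI (-1.34) fell as well. LDHA, which turns pyruvate into lactate, stood at 1989 and 2172 CPM untreated and 848, 889, 967 and 889.7 CPM with both (-1.21). ADM, named above among the largest falls, is also in this list.

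The core letters ACGTG of the low-oxygen response element, on either strand, stood in 13 of 30 promoters of the list (43.3%), against 23.2% of the promoters of tested genes and 18.7% of all. The ENO2 (chr12:6914330-6914579, plus strand) and LDHA (chr11:18394313-18394562, plus strand) promoters are shown as a gene of low and one of high level that fell, with matches on either strand in capitals. The longer capital runs in LDHA hold matches on both strands that overlap.

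ENO2: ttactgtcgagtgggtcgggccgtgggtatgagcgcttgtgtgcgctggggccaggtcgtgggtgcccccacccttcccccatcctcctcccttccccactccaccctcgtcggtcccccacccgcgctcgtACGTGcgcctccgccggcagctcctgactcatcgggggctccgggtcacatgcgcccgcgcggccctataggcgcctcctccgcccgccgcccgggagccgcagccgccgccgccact
LDHA: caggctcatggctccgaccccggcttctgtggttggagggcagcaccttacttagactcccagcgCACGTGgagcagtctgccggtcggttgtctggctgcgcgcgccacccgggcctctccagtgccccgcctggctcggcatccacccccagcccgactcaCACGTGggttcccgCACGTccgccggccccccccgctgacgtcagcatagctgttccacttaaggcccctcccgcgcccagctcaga

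MLL fusion targets were lower with the inhibitor and stayed lower when the guide was added. Of 19 tested, 16 were lower and 2 higher with the inhibitor alone (median -1.43), 8 lower and 3 higher with the guide alone (median -0.44), and 17 lower and 1 higher with both (median -1.73; 15 and 1 with library size only). In the inhibitor step within sgUTX cells 17 were lower and 1 higher (16.4% and 17.4% of all genes). Over all genes, 24.2% were lower with the inhibitor alone, 32.3% with the guide alone and 30.7% with both. HOXA5 came close to the sum: it stood at 17.8 and 16.9 CPM untreated and 0.579, 1.23, 1.19 and 1.58 CPM with both, a net change of -3.93 (SE 0.20, adjusted p = 1.42e-13) beside -0.68 and -3.23 alone (departure -0.02, adjusted p = 0.969). HOXA9, a homeobox gene that sustains these leukemias, went from 71.997 and 77.6 to 21.8, 24.02, 26.7 and 26.99 CPM (-1.59), and MEF2C, a progenitor transcription factor, from 343 and 340.4 to 93.6, 91.5, 77.7 and 82.05 CPM (-1.99), below its level with the inhibitor alone (-0.43, adjusted p = 2.64e-05).

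Other MLL targets were higher with both than with the inhibitor alone, 8 of the 19 in the guide step under inhibitor, while 9 were lower there. Of all genes, 27.7% were higher and 29.3% lower in that step. MEIS1, the HOXA partner, stood at 38.8 and 40.96 CPM untreated, 18.8, 19.5, 26.6 and 24.6 CPM with the guides, 1.87 and 0.776 CPM with the inhibitor and 4.72, 5.71, 5.0997 and 4.29 CPM with both. Its net change was -3.0002, 1.93 above the inhibitor alone (adjusted p = 8.28e-06). The kinase CDK6 was at 222 and 211 CPM untreated, 50.9 and 48.8 CPM with the inhibitor and 110.1, 107, 114 and 113 CPM with both (-0.96). The homeobox gene PBX3 (0.89 in the guide step under inhibitor, -1.88 net), the runt factor RUNX2 (1.246 and -1.73) and the progenitor factor MYB (0.90 and -0.42) had the same order. The net fall of MYB was not called with library size only (-0.15, adjusted p = 0.119). Other HOXA genes fell further with both than the sum of the single effects: HOXA6 went from 2.49 and 3.26 to 0.0446, 0.123, 0.113 and 0.102 CPM (-0.10 with the guide alone, -2.53 with the inhibitor alone and -4.81 with both, departure -2.19, adjusted p = 0.0139), and HOXA3 had a departure of -1.36 (adjusted p = 0.0349), each at low counts. HOXA6 shares 39.3% of its exonic bases with HOXA-AS3, and HOXA3 8.78% with a clone-named gene and 8.69% with HOXA-AS2. Beyond this list, SOCS2, a brake on cytokine signalling in progenitors, stood at 90.04 and 91.98 CPM untreated, 2.29 and 2.22 CPM with the inhibitor alone and 12.1, 12.7, 11.9 and 11.3 CPM with both (-2.92; guide step 2.41). Of 11 stem and progenitor genes 7 were lower and 1 higher with both (median -1.03), beside 30.7% and 29.8% of all genes.

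**Figure D4:**
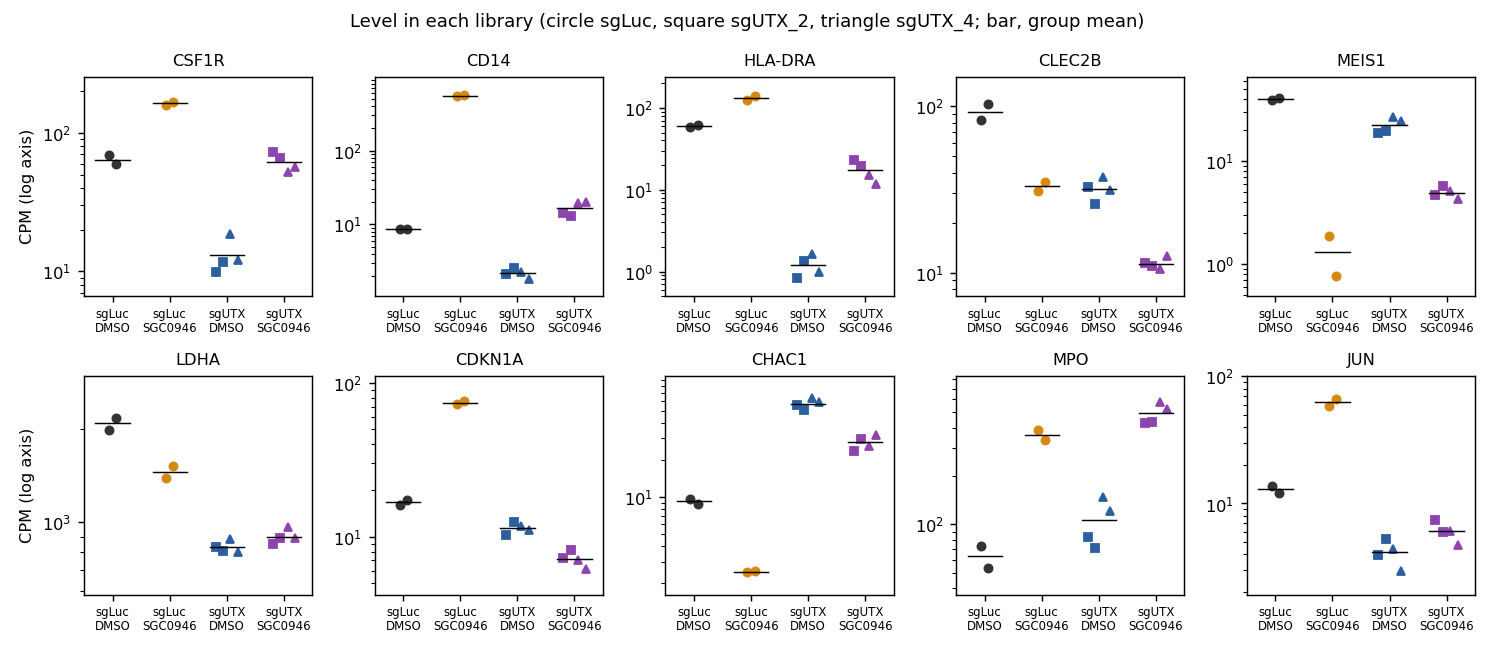
Level in CPM (log axis) of 10 genes in each of the 12 libraries, by guide and treatment, with the group mean as a bar. CSF1R returns to its untreated level with both perturbations, CLEC2B steps down with each, CDKN1A and JUN are highest in the sgLuc SGC0946 libraries, and MEIS1 ends between the 2 groups that received 1 perturbation.

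Granule and neutrophil genes were mostly higher with both than untreated. Of 21 tested, 17 were higher and 1 lower (median 1.70; 17 and none with library size only), beside 15 and 1 with the inhibitor alone (median 3.06) and 2 and 6 with the guide alone (median -0.37). In the guide step under inhibitor 12 were lower and 2 higher (median -1.12), beside 29.3% and 27.7% of all genes. Over all genes, 29.8% were higher with both, 24.7% higher with the inhibitor alone and 32.3% lower with the guide alone. PADI4, for example, stood at 17.4 and 18.5 CPM untreated and 217 and 200 CPM with the inhibitor alone. With both it was at 28.7, 27.2, 33.1 and 30.98 CPM. Members differed in how they came to their net change. MPO, myeloperoxidase, stood at 72.9 and 53.5 CPM untreated, 386 and 334 CPM with the inhibitor alone and 429.5, 432, 577 and 526 CPM with both (2.95, SE 0.34, adjusted p = 7.95e-05). ELANE, neutrophil elastase, was not called with the inhibitor alone (-0.64) and went from 154 and 158 to 368, 369, 631 and 567 CPM (1.63). With the guides alone ELANE already stood at 286, 263, 516 and 508 CPM. PRTN3, proteinase 3, was called with neither perturbation alone (0.53 and -0.17) and reached 893, 940.1, 1509.7 and 1295 CPM with both, from 440.1 and 408 CPM (1.45, adjusted p = 0.0106). With the guides alone PRTN3 was at 467 and 373 CPM for sgUTX_2 but already at 911 and 699 CPM for sgUTX_4. The defensin gene DEFA3 went from 28.998 and 28.7 to 170.1, 182, 700.2 and 597 CPM (3.83, adjusted p = 0.01002). With the inhibitor alone DEFA3 already stood at 184 and 182 CPM, though that effect was not called. With the guides alone it was at 16.5, 12.3, 70.9 and 52.3 CPM. For ELANE, PRTN3 and DEFA3 the sgUTX_4 values lay above the sgUTX_2 values, and the calls of DEFA3 and PRTN3 were lost without either sgLuc DMSO library (adjusted p of 0.069 and 0.068, and of 0.0575 and 0.0721). DEFA3 reads can be split with near-identical defensin genes. CEBPE, a regulator of granulocyte maturation, was higher in every perturbed group, at 75.2, 77.2, 94.8 and 95.1 CPM with both against 40.8 and 36.3 CPM untreated (1.40 with the guide alone, 1.55 with the inhibitor alone and 1.15 with both).

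Some genes that rose with the inhibitor in sgLuc cells ended below their untreated level with both. CDKN1A, the p21 inhibitor of cyclin-dependent kinases, stood at 16.1 and 17.3 CPM untreated, 72.6 and 75.8 CPM with the inhibitor alone, 10.2, 12.4, 11.7 and 11.1 CPM with the guides alone and 7.27, 8.21, 7.08 and 6.19 CPM with both. The net change was -1.21 (SE 0.12, adjusted p = 5.59e-09) with no overlap of the groups, and it lay 2.81 below the sum of the single effects (adjusted p = 5.74e-12). Within sgUTX cells the inhibitor step of CDKN1A was downward (-0.66, adjusted p = 1.15e-05). The immediate early transcription factors JUN and FOS also rose with the inhibitor alone and ended below untreated cells. JUN was at 13.8 and 12.2 CPM untreated, 58.6 and 66.7 CPM with the inhibitor and 7.399, 5.996, 6.12 and 4.75 CPM with both (-1.09). With the guides alone JUN stood at 3.93, 5.26, 4.41 and 2.92 CPM, so it did not share the downward inhibitor step of CDKN1A. FOS had -1.93 with the guide alone, 1.05 with the inhibitor alone and -2.34 with both. EGR1, in contrast, rose by 2.74 with the guides alone and fell back by 2.14 when the inhibitor was added, to 10.3, 8.296, 9.12 and 11.1 CPM beside 6.41 and 6.36 CPM untreated (0.60). Of 27 tested MAPK feedback and immediate early genes, 14 were higher and 3 lower with the inhibitor alone (24.7% and 24.2% of all genes). With both, 3 were higher and 12 lower (7 and 6 with library size only). Their departure from the sum was downward in 14 and upward in 1 (16.5% and 18.3% of all genes). CDKN2C, the p18 inhibitor of cyclin-dependent kinases, did not rise with the inhibitor. It stood at 202 and 219.7 CPM untreated, 79.9 and 75.1 CPM with the inhibitor alone and 107, 98.8, 117 and 105 CPM with the guides alone. With both CDKN2C was at 89.9, 95.6, 96.7 and 95.3 CPM (-1.16). In a list of 12 genes that mixes CDK inhibitors with D cyclins and their kinases, 7 were lower and 2 higher with both. Of 23 p53 targets, 11 were higher and 8 lower (13 and 5 with library size only). Of all genes tested, 29.8% were higher and 30.7% lower with both.

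Genes called with neither perturbation alone but changed at least 2-fold with both numbered 193, and the departure from the sum was called in 2 of the 139 higher and 7 of the 54 lower ones. HBEGF, a ligand of the epidermal growth factor receptor, is one of the 7. It stood at 12.01 and 8.86 CPM untreated, 12.4, 10.3, 10.3 and 12.9 CPM with the guides alone, 8.21 and 7.82 CPM with the inhibitor alone and 4.15, 3.98, 3.91 and 3.02 CPM with both (-1.47, SE 0.17, adjusted p = 9.46e-08; departure -1.21, adjusted p = 0.000305). The nuclear receptor NR4A1 had the same pattern, at 5.97 and 5.68 CPM untreated and 2.45, 2.998, 1.47 and 2.45 CPM with both (-1.29; departure -1.17). RGS16, which shortens G protein signals, fell from 33.4 and 33.99 to 14.8, 12.5, 6.46 and 7.31 CPM (-1.69), further with sgUTX_4 than with sgUTX_2. ROPN1L, a sperm tail protein gene, rose from 1.37 and 0.757 to 4.502, 6.32, 6.46 and 7.004 CPM (2.47). It stood at 2.54 and 2.11 CPM with the inhibitor alone and 1.18, 0.658, 3.36 and 2.92 CPM with the guides alone. A single effect that was not called is thus not shown to be absent.

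Seen as a sequence within sgUTX cells, 532 genes moved at least 2-fold with the guide and at least 2-fold back with the inhibitor step (alone, that step was called at 2-fold or more upward in 6.39% of genes and downward in 1.02%), and 243 of these ended within 1.5-fold of the untreated level. In 226 of the 243 the guide had lowered the gene. The 2 steps share the sgUTX DMSO libraries. With the guide effect from sgUTX_2 and the inhibitor step from sgUTX_4, the 2 steps share no library. The 1.5-fold limit still used the net change over both guides, which shares libraries with each step. There were 209 such genes, and 194 with the guides exchanged. HLA-DMB is one of them, at 2.61 and 2.27 CPM untreated, 0.246, 0.0438, 0.221 and 0.486 CPM with the guides alone and 3.21, 2.42, 3.85 and 3.43 CPM with both, where the last group overlapped the first. CD244, a receptor of natural killer and myeloid cells, moved back in part, from 60.5 and 57.5 CPM untreated through 6.34, 6.09, 4.85 and 4.81 CPM to 30.5, 34.1, 26.1 and 27.6 CPM (-0.99).

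Genes of MYC and ribosome biogenesis were mostly higher with the guide and stayed so: of 24 tested, 19 were higher and 3 lower with both (median 0.61), 19 and 3 with the guide alone (median 0.77) and 3 and 12 with the inhibitor alone (median -0.18). The shares of all genes higher and lower were 29.8% and 30.7% with both, 28.7% and 32.3% with the guide alone and 24.7% and 24.2% with the inhibitor alone. POLR1A, the large subunit of RNA polymerase I, went from 46.6 and 43.2 to 99.1, 96.8, 104 and 106 CPM (1.17) and was not called with the inhibitor alone (0.07, adjusted p = 0.522). NPM1, a nucleolar chaperone, fell from 2538 and 2738 to 1647, 1708, 1611 and 1642 CPM (-0.68). MYC stood at 766 and 804 CPM untreated, 342 and 351 CPM with the inhibitor alone and 622, 632, 611 and 582 CPM with both (-0.36, adjusted p = 1.28e-05; 0.82 in the guide step under inhibitor). With library size only the net fall of MYC was not called (-0.08, adjusted p = 0.189).

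Genes of the enzymes of histone H3 lysine 27 and lysine 4 methylation and of the other subunits of their complexes were higher in 14 and lower in 7 of 31 (21 and 4 with library size only). Of all genes tested, 29.8% were higher and 30.7% lower with both. EZH2, the lysine 27 methyltransferase, went from 29.8 and 26.5 to 60.3, 62.3, 54.9 and 58.5 CPM (1.07), and SETD1B, a lysine 4 methyltransferase, from 26.7 and 29.2 to 76.8, 73.1, 68.1 and 76.6 CPM (1.40). KDM6B, the other lysine 27 demethylase gene, stood at 127 and 131 CPM untreated, 95.9 CPM with the guides, 138 and 134 CPM with the inhibitor and 76.1, 67.6, 64.7 and 70.3 CPM with both (-0.89, adjusted p = 6.04e-11), lower than the sum by 0.54 (adjusted p = 7.97e-05). SAMHD1, which degrades deoxynucleotides and some nucleoside drugs, was at 106 and 98.2 CPM untreated, 508 and 523 CPM with the inhibitor and 269, 257, 268 and 276 CPM with both (1.39). IL3RA, the interleukin-3 receptor chain, fell from 48.2 and 42.6 to 11.8, 12.5, 10.99 and 9.51 CPM (-2.02) without a called departure from the sum (0.16, adjusted p = 0.491). Of 13 leukemia surface targets 7 were lower and 2 higher, beside 30.7% and 29.8% of all genes.

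Other lists had mixed directions with both, where 29.8% of all genes were higher and 30.7% lower. Of 19 integrins and adhesion genes 10 were lower and 4 higher (8 and 6 with library size only), and of 20 myeloid transcription factors 10 were lower and 8 higher, an order that library size only turned (5 and 9). Of 20 genes of the DOT1L and elongation complexes 7 were higher and 6 lower (14 and 2 with library size only), of 16 genes of nucleoside analogue handling 7 and 5 (10 and none), of 16 BCL2 family genes 6 and 5 (9 and 4), and of 6 drug efflux pumps 3 were higher and none lower.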

How the data were processed

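Total RNA of the 12 OCI-AML2 samples was made into libraries with the NEBNext Ultra RNA kit and read as paired ends on a HiSeq instrument, per the labels' protocols. The deposited values are raw counts per gene. Per the submitters' processing notes the reads were aligned with STAR 2.5.1b to hg19. The counting program and its use of strand were not given in the sources used here. All 58735 identifiers match GENCODE 29, an annotation of GRCh38, from which gene positions and exon overlaps were taken. The members, gene lists, classes and promoter letters were chosen with earlier results of these data known.

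Genes were filtered with filterByExpr, leaving 15060, scaled with TMM and fitted with edgeR 4.0.16 (quasi-likelihood, R 4.3.3) over all 12 libraries in 4 groups (sgLuc or sgUTX, DMSO or SGC0946), which left 8 residual degrees of freedom. Contrasts gave each perturbation alone, both, each step given the other, and the net change minus the sum of the single log2 effects. P-values were adjusted by Benjamini-Hochberg over all genes tested, and fold changes are on the log2 scale. A 6-group fit gave each guide. A single effect counted from 2-fold; cancelled means a net change within 1.5-fold; added means a net change called beyond both single effects in their direction. The text names, in part, up to 10 genes each of largest net rise and fall, of cancelled and of added genes in each direction that had at least 5 CPM, 5 net-only genes in each direction, and list members. The fit was tested on simulated counts. Alternatives were DESeq2 1.42.0, library-size scaling, other filters, groups and thresholds, a replicate block and leaving out each library. Promoters are the 250 bases before the RefSeq start (GRCh38.p14).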

Additional observations from a re-analysis of the deposited data

Results flagged for a closer look

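The net change differed between the 2 guides, by a test of that difference in the 6-group edgeR fit, in 16 of the 112 genes named with a net change, beside 3.01% of all genes tested (454). Values are the log2 fold change with sgUTX_4 minus that with sgUTX_2, both with SGC0946. These genes were higher with sgUTX_4: DEFA3 by 1.88 (adjusted p = 0.000806), SERPINB2 by 0.76, ELANE by 0.70 (adjusted p = 4.10e-09), FPR1 by 0.63, ITGAM by 0.62, CD14 by 0.55, MMP9 by 0.50 and the regulator CEBPE by 0.32. ENTPD7 was higher with sgUTX_4 by 0.67. The antigen presentation genes HLA-DRA and CD74 were lower with sgUTX_4, at -0.68 (adjusted p = 0.00546) and -0.24. RGS16 (-0.98), RXFP1 (-0.43), CD180 (-0.37) and PBX3 (-0.32) were lower with sgUTX_4 as well. KDM6A itself differed by 1.60 (adjusted p = 1.60e-13), with sgUTX_2 below and sgUTX_4 above the control level. In each of these genes other than KDM6A the net change kept its direction with each guide.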

How the results depend on the processing

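With library size as the only scaling 6899 genes were higher and 2802 lower with both perturbations, 2259 and 990 by at least 2-fold. With single effects counted from 1.5-fold, 338 genes were cancelled and 123 added, and with a tighter net limit of 0.32 on the log2 scale 87 were cancelled. Without a filter on low counts 389 genes were called net only. Leaving out each library in turn gave 3600 to 4537 genes higher, 3884 to 4689 lower, 1108 to 1284 and 1416 to 1574 by at least 2-fold, 126 to 156 cancelled, 28 to 39 added, and 201 to 252 that moved back within sgUTX cells. Replicate numbers did not pair the libraries: same-numbered libraries had correlations of deviations from -0.111 to 0.0731. With the replicate block 4394 genes were higher, 4541 lower, 142 cancelled and 38 added, and none of the 112 named genes crossed the threshold. With DESeq2 the counts were 4299, 4528, 144 and 39. No named gene that was called changed direction under these settings. With library size only HMGCS1, ITGB2, MYB and MYC were no longer called (log2 fold changes of -0.37, -0.10, -0.15 and -0.08), without a filter HMGCS1 and ITGB2, with 6 groups HMGCS1, and with 6 libraries TUBE1. Their causes were not tested. A gene with few counts can miss the test at these depths without being unchanged, and 2 control libraries set the precision of the comparison.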
